A study of Mus musculus with 4 samples.

Results

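Lung branching depends on a signal between tissue layers. Mesenchymal cells near the bud tips secrete FGF10, which binds the FGFR2 receptor on the epithelium and activates the RAS-ERK cascade, so that the bud grows toward the source. The cascade induces target genes such as Etv5, and it also induces its own inhibitors, among them the Sprouty proteins and the ERK phosphatase DUSP6, which limit how strongly and how long the signal runs.

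A set of 10 genes of this pathway was examined by name in RNA-seq of whole embryonic mouse lung. It held 4 ligand genes (Fgf7, Fgf9, Fgf10, Fgf18), the receptor gene Fgfr2, the transcription factor gene Etv5, and 4 feedback inhibitor genes (Spry1, Spry2, Spry4, Dusp6). All 10 were found among the 22556 genes of the table, and all 10 passed the filter on low values, a mean of at least 0.5 FPKM, which left 13770 genes for testing. FPKM divides the reads of a gene by the length of its transcript and by the sequencing depth, so levels of different genes can be set side by side.

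The lungs came from mouse embryos at E16.5. Control embryos were Shh-Cre; Stk11F/+ and Shh-Stk11 embryos were Shh-Cre; Stk11F/F, with 2 libraries per genotype, named here Control 1, Control 2, Shh-Stk11 1 and Shh-Stk11 2, with the last 2 also called mutant. Both genotypes therefore carried the Cre driver and at least 1 floxed allele of Stk11, the gene of a serine/threonine kinase upstream of AMPK and related kinases. Shh-Cre acts in the endoderm, from which the lung epithelium arises, and cells of other origin in the same organ kept their alleles. The strain was C57BL/6 by the labels and mixed by the methods of the study, and no label gave sex or litter. The study states biological replicates. The comparison asks how the transcripts of these genes differed between lungs with 2 floxed alleles of Stk11 and lungs with 1. The Control epithelium was thus not wild type for Stk11 where Cre had acted. In whole lung, fewer cells of a type and less RNA per cell cannot be told apart.

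Stk11 itself was at 44.0 and 45.5 FPKM in Control lungs and at 29.5 and 26.0 FPKM in mutant lungs, a log2 fold change of -0.69 (SE 0.125; limma, adjusted p = 0.0499), and the direction fits the labels. This call was at the edge of the threshold and was lost when any library was left out, with adjusted p of 0.113 to 0.183. Depth recovered from the low FPKM values was 30.8 M to 38.0 M reads per library. Sex was not balanced: Xist, the RNA of the inactive X chromosome, was at 65.1, 90.8 and 169 FPKM in Control 1, Control 2 and Shh-Stk11 1 and at 0.239 FPKM in Shh-Stk11 2, where the Y-linked Ddx3y reached 23.5 FPKM. Genotype and the sex of that library can be separated only by leaving it out, which was done for each fold change of the 10 genes. Without it the log2 fold changes were -0.14 for Fgf7, -0.22 for Fgf9, -0.24 for Fgf10, -0.43 for Fgf18, 0.12 for Fgfr2 and -0.01 for Etv5. They were 0.36 for Spry1, 0.07 for Spry2, -0.27 for Spry4 and -0.14 for Dusp6.

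All 10 genes were expressed, over a wide range of levels. By mean FPKM over the 4 libraries the order was Fgfr2, Etv5, Dusp6, Spry1, Spry2, Fgf10, Fgf18, Spry4, Fgf7 and Fgf9. The step from Fgf7 to Fgf9 was 8.29-fold and the other steps were between 1.03-fold and 1.85-fold. Every pair of neighbours kept its order in all 4 libraries except Spry1 and Spry2, which did so in 3 of 4, and Fgf10 and Fgf18, which did so in 2 of 4. The receptor and its downstream genes thus stood above the ligands, with Spry4 the exception, below Fgf10 and Fgf18.

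**Figure D1:**
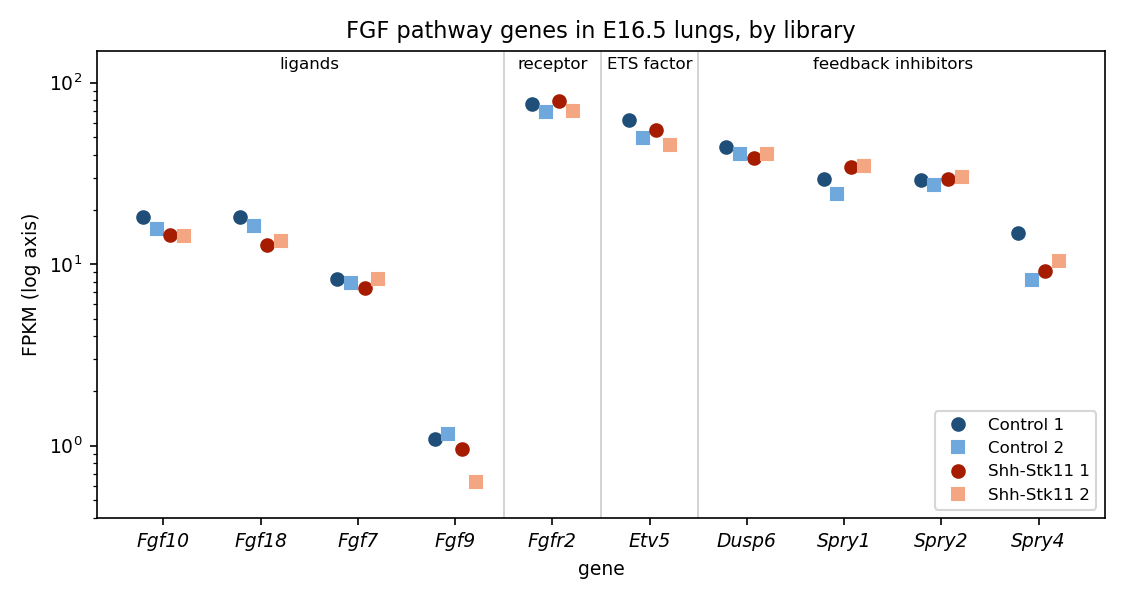
FPKM on a log axis (vertical) of the 10 genes grouped by role (horizontal), with 1 point per library, 2 Control and 2 Shh-Stk11. Fgfr2 lies between 69.2 and 79.1 FPKM in every library, Fgf9 near 1 FPKM, and the points of the genotypes are close for most genes.

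None of the 10 genes passed the threshold, an adjusted p under 0.05 in limma with Benjamini-Hochberg adjustment over all genes tested. Of all genes tested, 2.27% passed it, 0.98% higher and 1.29% lower in Shh-Stk11 lungs. At an unadjusted p under 0.05 there were 2 of 10, against 15.2% of all genes: Spry1 was higher, as were 8.04% of all genes, and Fgf18 lower, as were 7.18%. The libraries of the genotypes did not overlap for 6 of 10, against 46.8% of all genes. Spry1 and Spry2 were the 2 with higher mutant values (19.2% of all genes), and Fgf9, Fgf10, Fgf18 and Dusp6 the 4 with lower ones (27.6%). The log2 fold changes ran from -0.48 to 0.36 with a median of -0.13, beside a median of -0.05 over all genes tested, and 7 of 10 were negative, beside 58.3% of all genes, while 3 were positive, beside 41.7%. All 10 were below 0.5 in size, as were 86.3% of all genes. These shares lie near the background, and with 2 libraries per genotype only the intervals below say how large a difference the data leave room for.

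**Figure D2:**
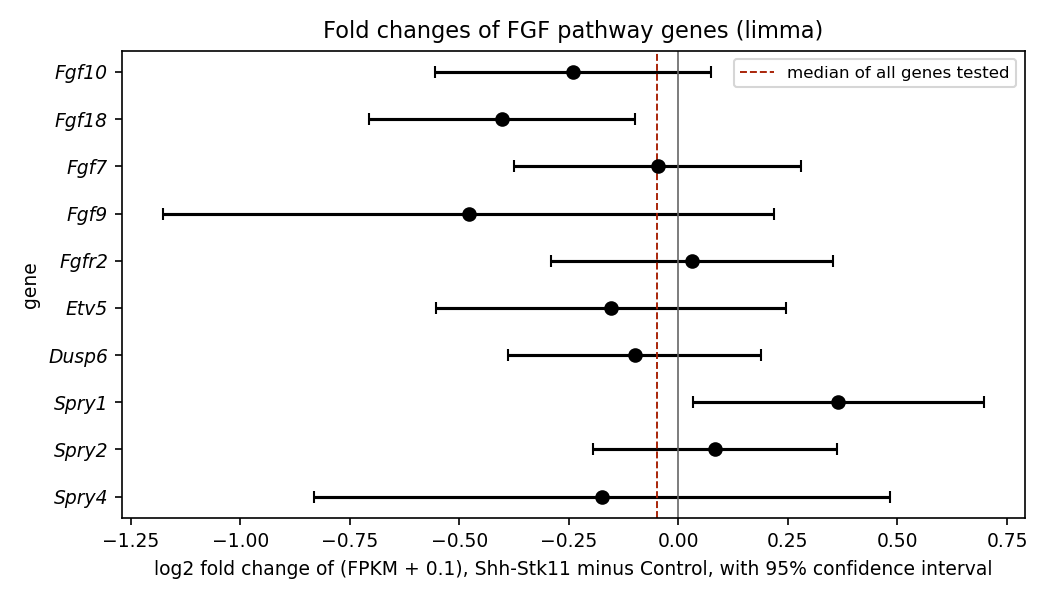
Log2 fold change of (FPKM + 0.1), Shh-Stk11 minus Control (horizontal), with its 95% confidence interval from limma, for each of the 10 genes (vertical), from 2 libraries per genotype. The intervals of Fgf18 (-0.71 to -0.10) and Spry1 (0.03 to 0.70) leave out 0 before adjustment, and those of the other 8 genes include it.

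Fgf10 encodes the ligand that draws the distal buds outward. It was at 18.3 and 15.7 FPKM in Control lungs and at 14.4 and 14.3 FPKM in Shh-Stk11 lungs. The mutant libraries were lower than the Control libraries, and the Control libraries were the more spread (17.0 ± 1.81 against 14.3 ± 0.0878, SD, n = 2 each). The log2 fold change was -0.24 (SE 0.131; limma, adjusted p = 0.457), with a 95% confidence interval of 0.68-fold to 1.05-fold. Without Control 1 it was -0.13. With the trend of fold change on transcript length and GC content removed it was -0.37, with an unadjusted p of 0.0262, and Fgf10 and Spry1 were then the 2 genes under an unadjusted p of 0.05, in place of Fgf18 and Spry1.

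Fgf7, the keratinocyte growth factor, comes from the mesenchyme and binds the same epithelial form of FGFR2. It was at 8.27 and 7.92 FPKM in Control lungs and at 7.35 and 8.33 FPKM in Shh-Stk11 lungs, so that the groups overlapped. Its log2 fold change was -0.05 (SE 0.136; limma, adjusted p = 0.905), and its interval ran from 0.77-fold to 1.21-fold. The sign turned, to 0.04, without Shh-Stk11 1, and removing the length and GC trend gave -0.26.

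Fgf18 encodes a mesenchymal ligand with roles in distal lung growth and in cartilage. It was at 18.3 and 16.3 FPKM in Control lungs and at 12.8 and 13.4 FPKM in Shh-Stk11 lungs. The groups did not overlap, and the gap between them was wider than the distance between replicates of either group. Its log2 fold change of -0.40 (SE 0.126) had an interval of 0.61-fold to 0.93-fold, but the adjusted p of limma was 0.187. It stayed negative without each library, at -0.48 to -0.32, and its unadjusted p was then 0.022 with Control 2 left out and 0.0549 to 0.089 with any of the other 3 left out. With the length and GC trend removed it was -0.20.

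Fgf9, which signals from mesothelium and epithelium to the mesenchyme, was the lowest of the 10 genes. It was at 1.09 and 1.17 FPKM in Control lungs and at 0.955 and 0.634 FPKM in Shh-Stk11 lungs, which correspond to an estimated 140, 125, 99.7 and 71.2 reads. The mutant libraries were lower, Shh-Stk11 2 more so. The log2 fold change of -0.48 (SE 0.29; limma, adjusted p = 0.505) was the most negative of the 10, with the widest interval on the log2 scale, 0.44-fold to 1.16-fold. Leaving out Shh-Stk11 2 gave -0.22, and leaving out Shh-Stk11 1 gave -0.74. With a pseudocount of 1 in place of 0.1 the value was -0.25. Fgf18 was then the more negative, at -0.38, as it was without Shh-Stk11 2, at -0.43, so the rank of Fgf9 was not stable. Counting error alone was 12% in the library with the fewest reads.

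Together the 4 ligand genes summed to 45.9 and 41.1 FPKM in Control lungs and to 35.5 and 36.6 FPKM in Shh-Stk11 lungs. They made up 59.6% and 57.5% of the FPKM of all FGF family genes, taken by name, in Control lungs and 50.1% and 51.2% in Shh-Stk11 lungs. The total of all these FGF family genes was 77.0 and 71.6 FPKM against 70.8 and 71.4 FPKM, which differed less. The gene that took the larger share was Fgf1, an FGF without a classical secretion signal, at 25.7 and 25.0 FPKM in Control and 28.5 and 27.7 FPKM in Shh-Stk11 lungs. Fgf1 was the most abundant FGF ligand transcript of these lungs, and its own log2 fold change was 0.15 (limma, adjusted p = 0.601).

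Fgfr2 encodes the receptor for FGF7 and FGF10 in the epithelium and, in another splice form, a receptor in the mesenchyme. It was at 76.3 and 69.2 FPKM in Control lungs and at 79.1 and 69.7 FPKM in Shh-Stk11 lungs, so that the genotypes overlapped. For the whole gene the log2 fold change was 0.03 (SE 0.134; limma, adjusted p = 0.938), with an interval of 0.82-fold to 1.28-fold. The sign turned without Control 2 (-0.04) and without Shh-Stk11 1 (-0.06). A value per gene does not tell the splice forms apart. Among the FGF receptor genes Fgfr2 held 52.5% and 49.1% of the FPKM in Control lungs and 51.7% and 51.6% in Shh-Stk11 lungs.

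Etv5, an ETS transcription factor gene that FGF10 signaling switches on in the distal epithelium, was at 62.3 and 49.5 FPKM in Control lungs. It was at 55.0 and 45.3 FPKM in Shh-Stk11 lungs, within the span of the Control libraries for 1 of 2. Its log2 fold change was -0.15 (SE 0.166; limma, adjusted p = 0.715), with an interval of 0.68-fold to 1.19-fold. Without Control 1 it was 0.01 and without Shh-Stk11 2 it was -0.01, so the negative value rested on those libraries.

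Spry1 encodes a Sprouty protein, a feedback inhibitor of receptor tyrosine kinase signaling. It was at 29.6 and 24.3 FPKM in Control lungs and at 34.5 and 34.7 FPKM in Shh-Stk11 lungs. The mutant libraries were higher and lay close to each other, while the Control libraries were further apart (27.0 ± 3.76 against 34.6 ± 0.13, SD, n = 2 each). The log2 fold change was 0.36 (SE 0.138), the most positive of the 10, with an interval of 1.02-fold to 1.62-fold and an adjusted p of 0.277 in limma. It was 0.51 without Control 1 and 0.22 without Control 2, a move of over 1.5 times for the latter. Its unadjusted p was 0.0117 without Control 1, 0.143 without Control 2 and 0.104 to 0.11 with either mutant library left out, and 0.0605 with no trend in eBayes.

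Spry2, the Sprouty gene that marks the distal epithelium during branching, was at 28.9 and 27.4 FPKM in Control lungs and at 29.5 and 30.2 FPKM in Shh-Stk11 lungs. The groups did not overlap, but they nearly touched. A log2 fold change of 0.08 (SE 0.116; limma, adjusted p = 0.782) had the narrowest interval of the 10 genes on the log2 scale, 0.87-fold to 1.29-fold. It ranged from 0.04 without Control 2 to 0.12 without Control 1, and was 0.16 with the trend on length and GC content removed.

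Spry4, a further Sprouty gene, was at 14.9 and 8.16 FPKM in Control lungs and at 9.11 and 10.5 FPKM in Shh-Stk11 lungs. Control 1 stood apart from the other 3 libraries. Its replicate spread was larger than that of 93.7% of the genes tested, and the log2 fold change of -0.17 (SE 0.273; limma, adjusted p = 0.813) had an interval of 0.562-fold to 1.397-fold. The value was 0.26 without Control 1 and -0.61 without Control 2, so the direction for Spry4 rested on which Control library was used.

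Dusp6, which encodes the cytoplasmic phosphatase that inactivates ERK, was at 44.1 and 40.5 FPKM in Control lungs and at 38.5 and 40.4 FPKM in Shh-Stk11 lungs. Both mutant values were lower, but Shh-Stk11 2 and Control 2 were almost equal. The log2 fold change was -0.10 (SE 0.121; limma, adjusted p = 0.744), with an interval of 0.76-fold to 1.14-fold, and it was 0.01 with the trend on length and GC content removed. It was -0.04 without Control 1 and -0.16 without Control 2. No direction can be read for the 5 genes downstream of the receptor as a group, since none was called and the negative signs of Etv5, Dusp6 and Spry4 each turned under an alternative.

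Ratios between genes of the same library do not depend on the scaling of that library. Spry1 to Spry2 was 1.02 and 0.889 in Control lungs and 1.17 and 1.15 in Shh-Stk11 lungs. Spry1 to Fgfr2 was 0.388 and 0.351 against 0.436 and 0.497. Neither ratio overlapped between genotypes, which held for 25 of all 45 pairs of the 10 genes (55.6%), and the Spry1 values are the same that gave its fold change.

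The ratio of Etv5 to Fgfr2 was 0.816 and 0.716 in Control lungs and 0.696 and 0.649 in Shh-Stk11 lungs. That of Dusp6 to Fgfr2 was 0.578 and 0.586 against 0.487 and 0.580. The Etv5 ratio lay lower in both mutant libraries, by a small margin for Shh-Stk11 1, and the Dusp6 ratio overlapped between genotypes. Fgf10 to Fgf7, the balance of the ligands of the epithelial receptor, was 2.21 and 1.99 against 1.96 and 1.71. Fgf18 to Fgf10 was 1 and 1.04 against 0.887 and 0.936. These are descriptions, since 2 against 2 libraries cannot give a two-sided exact permutation p below 0.333.

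**Figure D3:**
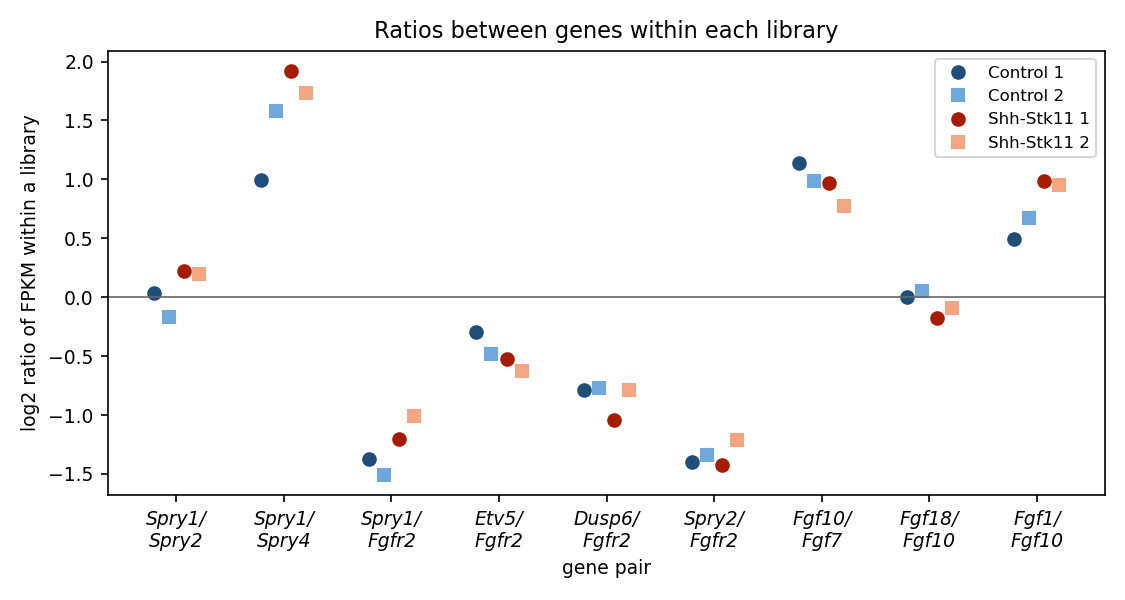
Log2 ratio of FPKM between the genes of a pair within each library (vertical) for 9 pairs (horizontal), with 1 point per library, 2 Control and 2 Shh-Stk11. The Spry1/Spry2 points are higher in both Shh-Stk11 libraries. So are the Spry1/Spry4 points, where the Control libraries lie apart (0.992 in Control 1 and 1.58 in Control 2).

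Other genes of the pathway were read in 6 lists. Of 18 further FGF family genes, taken by name whether or not they encode a secreted ligand, 6 were listed at 0 in every library. The 4 that passed the filter were Fgf1, Fgf2, Fgf11 and Fgf13, and none of the 4 was called. The log2 fold changes of those 4 were positive, as were 41.7% of all genes tested, with a median of 0.26. The largest was that of Fgf2, basic FGF, at 1.94 and 2.01 FPKM in Control and 3.06 and 2.84 FPKM in mutant lungs (log2 fold change 0.55, limma, adjusted p = 0.191). Fgf7, Fgf9, Fgf10 and Fgf18 had negative values, Fgf7 not without Shh-Stk11 1, and the difference between these genes and the further 4 was not tested.

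Of the 6 tested genes among the other FGF receptors and co-receptors none was called, and the median was -0.10. Fgfr3, the next most abundant receptor, was at 43.3 and 44.9 FPKM in Control and 45.4 and 45.9 FPKM in mutant lungs (log2 fold change 0.05). Fgfr4, another FGF receptor gene, was at 14.2 and 14.1 FPKM against 14.2 and 8.51 FPKM (log2 fold change -0.36, limma, adjusted p = 0.533). Its low value was in Shh-Stk11 2 alone.

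Heparan sulfate chains hold FGFs at the cell surface and in the matrix. Of 20 tested genes for their core proteins and synthesis none was called, with a median of -0.05. Gpc3, a glypican and the most abundant, had means of 205 and 195 FPKM in Control and Shh-Stk11 lungs. Sdc1, an epithelial syndecan, was at 92.8 and 75.4 FPKM against 141 and 155 FPKM. Its log2 fold change was 0.82 with an adjusted p of 0.0529 in limma, just outside the threshold. Ugdh, an enzyme that makes a sugar precursor of the chains, had the most negative value, -0.23.

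The relay from receptor to ERK held 22 tested genes, with a median of -0.02. Braf, a RAF kinase of this cascade, was the 1 gene of the 22 that was called, beside 2.27% of all genes tested. It was at 4.37 and 4.12 FPKM in Control lungs and rose to 7.97 and 7.43 FPKM in mutant lungs, a log2 fold change of 0.84 (SE 0.139; limma, adjusted p = 0.0385). With the trend on length and GC content removed it was 0.52 (adjusted p = 0.14). Mapk3, the gene of ERK1 and the most abundant of the relay, was at 114 FPKM in both Control libraries and at 92.6 and 98.0 FPKM in mutant lungs (log2 fold change -0.26, limma, adjusted p = 0.403). Ksr1, a scaffold of the cascade, had the most negative value, -0.30.

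Of 19 tested genes among other ERK feedback inhibitors and targets 1, Egr1, was called, beside 2.27% of all genes tested. The median of the list was -0.000139. Egr1, an immediate early transcription factor gene, was at 3.03 and 3.26 FPKM in Control lungs and rose to 6.26 and 6.84 FPKM in mutant lungs, a log2 fold change of 1.04 (SE 0.149; limma, adjusted p = 0.0259). Ier3, another immediate early gene, was at 44.4 and 32.7 FPKM against 19.5 and 23.2 FPKM, a log2 fold change of -0.84 with an adjusted p of 0.0774. The most abundant gene of the list was Lgals3, which encodes galectin-3, with means of 88.2 and 79.0 FPKM. Both calls, Braf and Egr1, were lost when any library was left out, with adjusted p of 0.127 to 0.193 for Braf and 0.0927 to 0.17 for Egr1. Their log2 fold changes then were 0.795 to 0.894 for Braf and 0.972 to 1.10 for Egr1, close to those with all libraries.

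The signals that shape the bud around FGF10 held 24 tested genes, none of which was called, with a median of -0.12. Ctnnb1, the gene of beta-catenin, was the most abundant (means of 420 and 450 FPKM). Sox9, a transcription factor of the bud tips, was at 6.35 and 7.03 FPKM in Control and 14.5 and 8.45 FPKM in mutant lungs (log2 fold change 0.72, limma, adjusted p = 0.238). Wnt2, a mesenchymal WNT ligand, was at 41.5 and 42.3 FPKM against 23.2 and 29.8 FPKM (log2 fold change -0.67, limma, adjusted p = 0.0869). For Sox9 the spread between the Shh-Stk11 libraries was larger than the distance of Shh-Stk11 2 from Control.

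**Figure D4:**
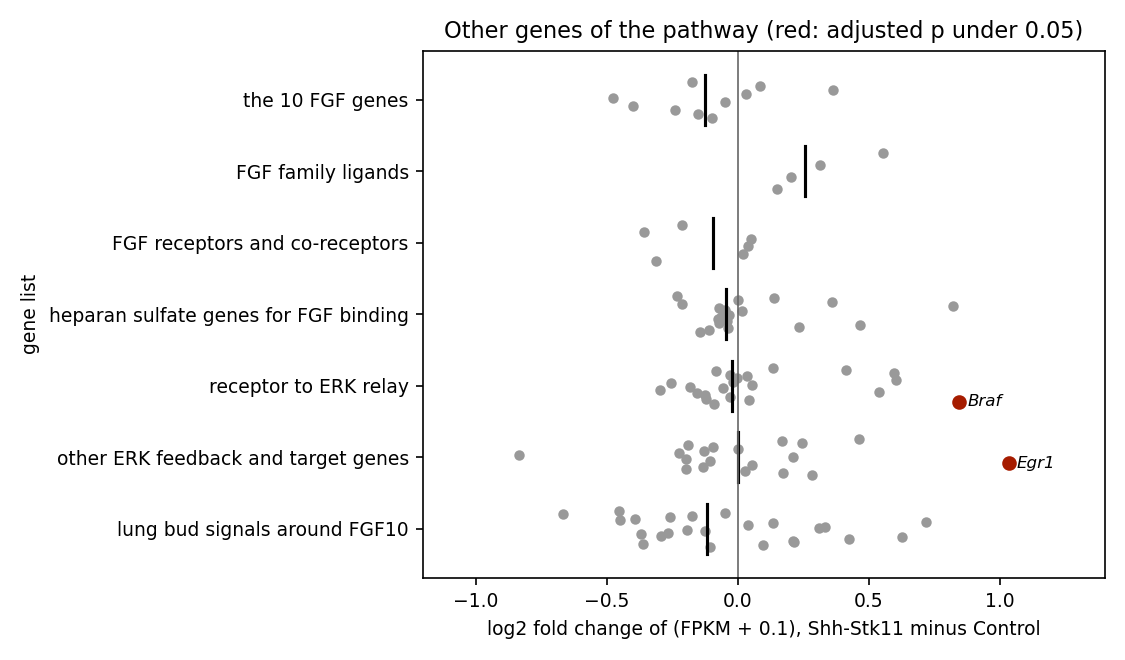
Log2 fold change of (FPKM + 0.1), Shh-Stk11 minus Control (horizontal), of each tested gene in the 6 pathway lists and the 10 genes (vertical), with red points for genes under an adjusted p of 0.05. The red points are Braf and Egr1. The 4 tested further FGF family genes lie above 0 (0.15 to 0.55), and the other lists spread to both sides of it.

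Markers of the tissue types in the whole lung were read beside these values. All 14 general epithelial markers had positive log2 fold changes, beside 41.7% of all genes tested, with a median of 0.21. Their summed level was 1405 and 1467 FPKM in Control lungs and 1559 and 1741 FPKM in Shh-Stk11 lungs. Of 14 mesenchymal markers 13 were negative, beside 58.3% of all genes tested, with a median of -0.27. Their sum was 1249 and 1106 FPKM against 1005 and 928 FPKM. All 12 endothelial markers were negative, with a median of -0.38 and sums of 1099 and 1006 against 770 and 823 FPKM. None of these markers was called, and none was at 0 in every library. Without overlap, 9 of the 14 epithelial markers were higher (19.2% of all genes tested) and 0 lower. Lower without overlap were 7 of the 14 mesenchymal and 10 of the 12 endothelial markers (27.6%), and 0 of either were higher. Of the 8 tested mesothelial markers 5 were lower without overlap (27.6% of all genes tested) and 0 higher (19.2%), with a median of -0.19 and none called. Their sum overlapped (502 and 499 against 428 and 528 FPKM), but Krt19, which is also an epithelial marker, made up most of it. Without Krt19, the mean log2 level of the other 7 was 3.38 and 3.28 in Control and 2.94 and 3.09 in mutant lungs, a difference of -0.31. The ciliated cell markers were far lower, 7 of 8 tested called, beside 1.29% of all genes called lower. Their sums were 140 and 149 against 41.7 and 41.0 FPKM. All 9 tested red blood cell markers were negative, beside 58.3% of all genes (median -0.56, 1 called lower, beside the same 1.29%). All 7 tested heart muscle markers were negative as well (median -0.86), but their sums of 125 and 285 against 161 and 62.7 FPKM overlapped. The medians were -0.05 for smooth muscle and 0.03 for immune markers, with no gene called. Markers of the distal tip epithelium, where Etv5 and Spry2 are expressed, went both ways. Of 8, 4 were lower without overlap and 1 higher, beside the same 27.6% and 19.2% of all genes, none was called, and the log2 fold changes ran from -0.76 for Sftpc, the surfactant protein C gene, to 0.72 for Sox9. Their sums, nearly all Sftpc, were 17870 and 16230 against 8406 and 12480 FPKM.

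Against the mean log2 level of the mesenchymal markers in the same libraries, the difference between genotypes was 0.03 for Fgf10, -0.13 for Fgf18 and 0.22 for Fgf7. The log2 fold changes of these markers ran from -0.67 for Wnt2 to 0.10 for Twist1. Among them Foxf1a, Tbx4, Tbx5 and Wnt2 are also in the list of signals around FGF10, so this reference is not independent of that list. Against the epithelial markers the difference between genotypes was -0.23 for Fgfr2, -0.41 for Etv5, -0.36 for Dusp6, -0.17 for Spry2, -0.43 for Spry4 and 0.11 for Spry1. Spry2 and Fgfr2, positive as measured, were thus negative on this scale. For Fgf9 the difference was -0.74 against the epithelial and -0.17 against the 7 mesothelial markers. The marker means themselves differed without overlap, so most genes shift on these scales. Relative to epithelial markers, whose mean was 6.12 and 6.16 in Control and 6.35 and 6.44 in mutant lungs, 8 of the 10 genes were lower without overlap, beside 64.1% of all genes tested, and 0 higher, beside 6.62%. Spry1 and Spry4 overlapped. Relative to mesenchymal markers 4 of 10 (Fgf7, Fgfr2, Spry1 and Spry2) were higher without overlap, beside 53.4% of all genes, and 0 lower, beside 5.64%. Relative to mesothelial markers 5 of 10 were higher, beside 58.3%, and 1, Fgf18, lower, beside 4.89%, while Fgf9 overlapped. The values of Fgfr2 against epithelial markers nearly touched (-0.0444 in Control 2 and -0.0457 in Shh-Stk11 1), and the interval of the Fgfr2 fold change includes the epithelial marker difference of 0.26. No test of these differences was run. The part of tissue composition in these values was not tested.

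**Figure D5:**
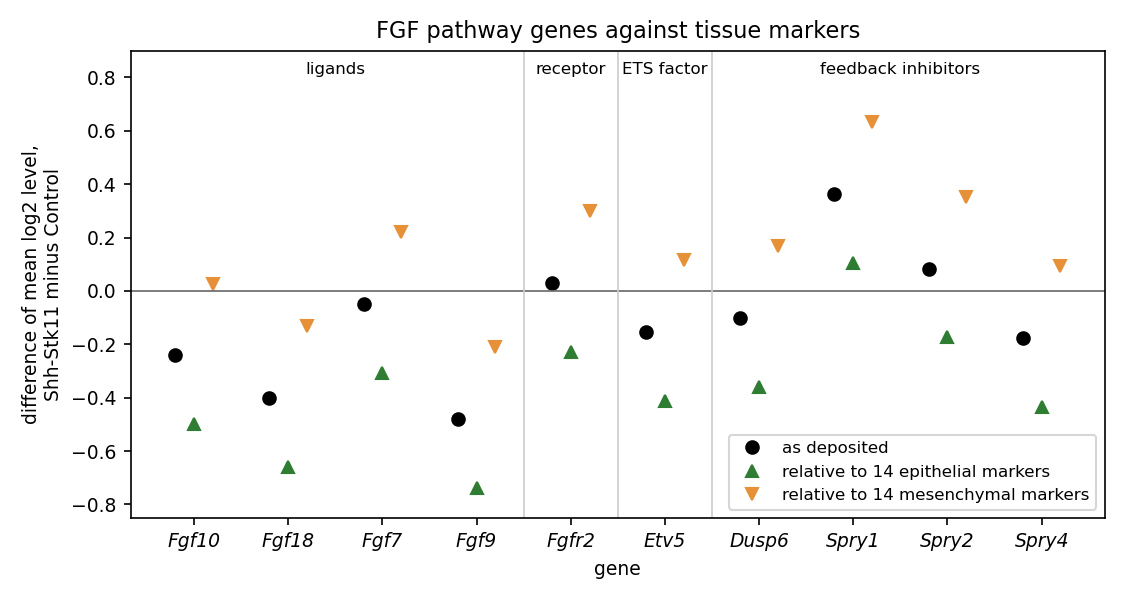
Difference of mean log2 level, Shh-Stk11 minus Control (vertical), of the 10 genes (horizontal) as measured and after subtracting the mean log2 level of epithelial or mesenchymal markers of the same libraries. Relative to mesenchymal markers Fgf10 lies near 0 (0.03), and Spry1 is at 0.63 against mesenchymal markers and at 0.11 against epithelial markers, where its libraries overlap between genotypes. Some mesenchymal markers are also in the list of signals around FGF10.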

How the data were processed

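Total RNA of whole E16.5 lungs was sequenced by the authors as single-end reads. They deposited 1 table with an FPKM value for each gene in each library. The processing notes name TopHat2 2.0.13 and Cufflinks 2.2.1, and both GRCm38 and mm9 as builds with no role given, so no coordinates are printed. The annotation and any scaling between libraries are not given in the sources used here.

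The 4 libraries were grouped by genotype. With R 4.3.3 and limma 3.58.1, log2(FPKM + 0.1) of the 13770 genes whose mean reached 0.5 FPKM was fitted with genotype as the only term (eBayes with a trend, 4.48 prior and 2 residual degrees of freedom), two-sided, with Benjamini-Hochberg adjustment over all genes tested and a threshold of 0.05. A fold change on this scale understates the change of low genes. Intervals are 95% confidence intervals. The script was tested on simulated data.

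Low values were whole multiples of a smallest step for 81.4% of 1717 genes (tolerance 0.1 of a read), from which depth was estimated. The values are FPKM, so no count model was used.

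The 10 genes, the pathway lists and the marker lists were chosen with earlier results of these data known. From each pathway list the text names called genes, the most abundant gene, and the most positive and most negative tested genes. Of the further FGF family genes all 4 tested are named. The alternatives were other pseudocounts, filters, scalings and eBayes settings, a replicate block, removal of a length and GC trend, and leaving out each library. Length and GC content came from GENCODE M21, matched by symbol for 20242 genes and by synonym for 1918.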

Additional observations from a re-analysis of the deposited data

How the results depend on the processing

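None of the 10 genes was called under any of 15 alternatives (Fgf9 had no value at a mean of at least 5 FPKM). Signs turned for Spry4 (0.256) and Etv5 (0.0109) without Control 1, for Fgfr2 without Control 2 (-0.0399) and without Shh-Stk11 1 (-0.0603), for Fgf7 without Shh-Stk11 1 (0.0409) and for Dusp6 with the length and GC trend removed (0.0136). With a library left out, values ran from -0.605 to 0.256 for Spry4, from -0.318 to 0.0109 for Etv5, from -0.0603 to 0.122 for Fgfr2, from -0.136 to 0.0409 for Fgf7, from 0.0434 to 0.124 for Spry2 and from -0.162 to -0.0385 for Dusp6. The cause was not tested. The median of the 10 was -0.00274 without Control 1 and -0.24 without Control 2. Of all genes tested, 313 were called, against 200 at a mean of at least 5 FPKM, 61 with no filter, 587 with robust eBayes, 186 with the length and GC trend removed, and 38 to 191 with a library left out, the lowest without Control 2. Leaving out a library leaves 1 in its group, which is assumed to vary like the other group. The share of calls that were higher was 43.1%, against 55.0% at 5 FPKM, 32.8% with no filter and 33.5% with no trend.

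Of the pathway lists 2 genes were called, against 0 at 5 FPKM (where Braf, at 0.845, missed the threshold and Egr1 was not tested), 0 with no filter, 1 with quantile normalization, 5 with robust eBayes and 0 to 0 with a library left out. Stk11 stayed lower but missed the threshold at -0.675 with a pseudocount of 1, -0.692 at 0.1 FPKM, with no filter and with no trend, -0.624 with quantile normalization, -0.651 with median-ratio scaling, -0.559 with the length and GC trend removed, and -0.783 to -0.601 with a library left out. Sdc1 was called in 4 alternatives, with adjusted p of 0.0271 to 0.0473.

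Replicate numbers were not said to mark a litter or batch, and same-numbered deviations correlated at -0.114. With a replicate block 13 genes were called, 0 of the pathway lists and none of the 10, and Stk11 was at -0.692 (adjusted p = 0.154). With the pairing crossed, a choice made after seeing the data, 675 genes were called. Depth limits Fgf9 most, and 2 libraries per genotype limit all values.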
